A study of Mus musculus with 6 samples.

Results

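The clustered histone genes are the histone genes of the mouse that lie side by side in the Hist1, Hist2, Hist3 and Hist4 clusters. They were taken as every protein-coding gene of the deposited table whose symbol begins with Hist1h, Hist2h, Hist3h or Hist4h, which gave 55 of 28262 listed genes. RNA-seq was performed on Sertoli cells, the somatic cells of the seminiferous tubule that carry the germ cells, purified from the testes of C57BL/6 mice at 20 days of age and cultured at 34 °C without further treatment. There were 3 libraries from Pa1F/F mice, whose Pa1 alleles are floxed and intact, and 3 from Amh-pa1-/- mice, which carry the same floxed alleles together with a Cre transgene that the Amh promoter drives in Sertoli cells. The comparison asks how the level of each histone transcript differed between these genotypes.

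Nucleosomes are built from the core histones H2A, H2B, H3 and H4, and the linker histone H1 binds the DNA between them. Most clustered histone genes are expressed while DNA is replicated, and their mRNA normally ends in a conserved stem-loop that the stem-loop binding protein SLBP holds, not in a poly(A) tail. Some of them also give longer polyadenylated transcripts, mostly in cells that have stopped dividing, and replacement variants encoded elsewhere in the genome are used outside S phase. Sertoli cells stop dividing during prepubertal life.

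Of the 55 members, 6 encode H1, 12 encode H2A, 16 encode H2B, 10 encode H3 and 11 encode H4. The Hist1 cluster on chromosome 13 (chr13:21715763-23764406 in GRCm38) held 48 of them. Hist2 on chromosome 3 held 4, Hist3 on chromosome 11 held 2 and Hist4 on chromosome 6 held 1. The testis-specific genes Hist1h2aa and Hist1h2ba were not analysed here.

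The stem-loop was looked for in the annotated transcripts because it sets how the end of a histone mRNA is made. The search covered the 150 bases after the stop codon of each canonical GENCODE vM39 model and took the first run of 16 bases with a stem of 6 base pairs that opens with GG and closes with CC, around a loop of 4 bases that opens with T. A match was found in 39 of 55 members, 21 to 54 bases after the stop codon. It was found in 63 of 18665 other genes with such a window (0.338%). The sites below belong to members whose values are described further on, and one of each H1 gene that had a match is included. They are printed as in the transcript, 5′ to 3′, with the stem-loop in capitals, and the coordinates are those of the stem-loop in GRCm39, the build of that annotation, each within the 3′ UTR.
Hist1h1c (chr13:23923495-23923510, plus strand): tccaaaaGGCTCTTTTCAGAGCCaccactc
Hist1h1d (chr13:23739961-23739976, plus strand): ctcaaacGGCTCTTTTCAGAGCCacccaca
Hist1h1e (chr13:23805765-23805780, minus strand): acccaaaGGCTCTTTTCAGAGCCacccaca
Hist1h1t (chr13:23880508-23880523, plus strand): acccaaaGGCTCTTTTAAGAGCCacttaca
Hist3h2a (chr11:58845998-58846013, plus strand): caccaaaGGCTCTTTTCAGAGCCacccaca
Hist1h2bg (chr13:23756017-23756032, plus strand): acccaaaGGCTCTTTTCAGAGCCacccata
Hist1h2be (chr13:23769514-23769529, minus strand): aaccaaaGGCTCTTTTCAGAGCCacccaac
Hist2h3c2 (chr3:96145801-96145816, minus strand): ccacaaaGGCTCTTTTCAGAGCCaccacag
Hist1h4h (chr13:23715628-23715643, plus strand): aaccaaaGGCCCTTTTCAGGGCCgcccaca
Hist1h4i (chr13:22225136-22225151, minus strand): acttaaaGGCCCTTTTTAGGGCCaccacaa
There were 8 different stem-loops. The one printed for Hist1h1c was shared by 21 members. In every H1, H2A, H2B and H3 member with a match the stem opened with GGCT, whereas 9 of 10 matched H4 members had a stem that opened with GGCC. The models of 10 members held at most 1 base after the stop codon, among them that of Hist1h1b, so no window could be searched there. In 6 others no match was found, among them Hist1h2bc and Hist2h2be, and no match says only that these letters are not in that window.

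Library totals ranged from 13203757 to 16231443 counts, and a count of 3, taken as the floor, corresponded to between 0.1845 and 0.2295 CPM. CPM are counts relative to the library total, corrected by its TMM factor and scaled as parts per 1000000. Reads carry no molecular identifiers, so such floors cover counting error only. In each genotype 2 libraries were far closer to each other than to the third. Pa1F/F replicates 1 and 3 differed by a chi-square of 2.24 per degree of freedom over all genes, against 18.7 to 20.3 for the pairs with replicate 2, and Amh-pa1-/- replicates 1 and 2 by 1.68, against 28.9 to 30.9 for the pairs with replicate 3. The methods speak of biological replicates, but the sources used here do not name the animals or cultures behind each library. The close libraries were counted as separate samples (n = 3), and if they were repeats of 1 sample, the SDs and p-values given here are too small. With each close pair summed into 1 library, 4.43% of all genes tested were higher and 4.22% lower by the adjusted p, and values from that fit are given for the clustered histone genes that passed and for each gene list. The libraries outside the close pairs deviated together across genotypes (r = 0.214 over genes between Pa1F/F replicate 2 and Amh-pa1-/- replicate 3). Between the close libraries r was 0.108 to 0.150, and all other pairs had r between -0.179 and -0.141. Deviations were taken from the mean of each genotype, so these r values depend on each other and are not separate evidence. A fit with the split of close and other libraries as a term, chosen after seeing the data, is given with the calls. Of the Sertoli cell markers, most were detected in both genotypes, but 4 of 13 tested were lower in the knockout by the adjusted p (Clu, Gata4, Inha and Nr5a1) and 1 was higher (Dmrt1), against 17.1% and 18.2% of all genes tested. With the close pairs summed, 2 were lower and 0 higher. Without Amh-pa1-/- replicate 3, Amh, Amhr2, Cldn11 and Rhox8 were also lower by the adjusted p and Wt1 was also higher. Amh had 2.98 and 3.29 CPM in Amh-pa1-/- replicates 1 and 2 and 24.8 CPM in replicate 3. Clu, the most abundant marker, averaged 13130 CPM in Pa1F/F and 8136 CPM in Amh-pa1-/- cells. It did not pass without Pa1F/F replicate 1 or 3 or Amh-pa1-/- replicate 1 or 2. Sox9 averaged 316 CPM in Pa1F/F and 291 CPM in Amh-pa1-/- cells and Wt1 345 and 377 CPM, with overlapping libraries, and Trf and Tsx stayed at or under 1 CPM in every library. Of the spermatid markers 8 of 9, of the spermatocyte markers 8 of 14 and of the spermatogonia markers 4 of 12 stayed at or under 1 CPM in every library. In bulk samples, fewer cells of a type and less RNA per cell cannot be told apart.

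Clustered histone transcripts made up a small part of these libraries, and 2 genes carried most of it. All 55 members together had 138, 123 and 146 CPM in Pa1F/F replicates 1 to 3 and 102 CPM in each Amh-pa1-/- library. The sum was lower in every knockout library than in any control library, at 135 ± 11.5 CPM against 102 ± 0.326 CPM (SD, n = 3), a log2 ratio of -0.41. Hist1h1c, which encodes a linker histone H1, held 44.6% of the member CPM, and Hist1h2bc, which encodes an H2B, held 33.5%. Without both, the sum was 29.9 ± 3.92 CPM in Pa1F/F and 22.1 ± 2.31 CPM in Amh-pa1-/- cells, and the libraries again did not overlap. No test was made on sums over members.

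**Figure D1:**
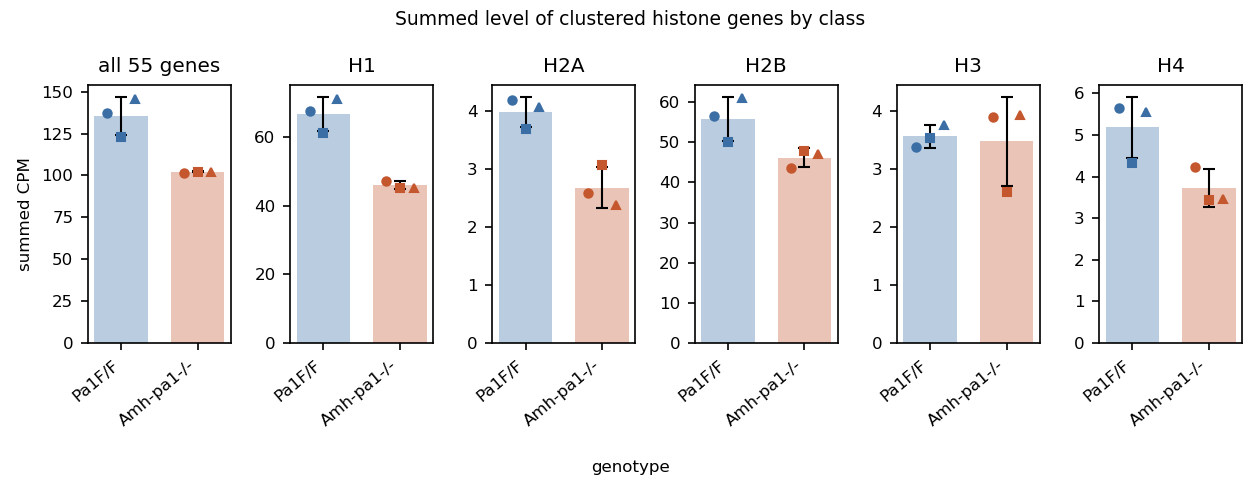
Summed CPM of all 55 clustered histone genes and of each class (y axis, linear from 0, its own scale in each panel) in Pa1F/F and Amh-pa1-/- libraries. Bars are means, error bars SD over 3 libraries, and circles, squares and triangles are replicates 1, 2 and 3. The knockout libraries lie below all control libraries in every panel except H3.

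By class, the linker histones and H2B held nearly all of the signal. H1 genes summed to 66.8 ± 5.05 CPM in Pa1F/F and 46.0 ± 1.19 CPM in Amh-pa1-/- cells (log2 ratio -0.54), and H2B genes to 55.8 ± 5.50 and 46.2 ± 2.28 CPM (-0.27). H2A genes summed to 3.97 ± 0.262 and 2.67 ± 0.348 CPM (-0.57), and H4 genes to 5.18 ± 0.735 and 3.72 ± 0.454 CPM (-0.48). In each of these 4 classes every knockout library was below every control library. H3 genes summed to 3.57 ± 0.196 and 3.49 ± 0.767 CPM, and there the genotypes overlapped. Leaving out the 2 members of each class with the most counts moved the log2 ratio of H1 to -0.92, of H2A to -0.26 and of H4 to -0.79. The size of these ratios thus depends on few genes. Without those members the fall was larger in H1 and H4 and smaller in H2A.

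By position, the Hist1 cluster held 92.5% of the member CPM, and within it the stretch from chr13:23531050 to chr13:23764406, with 27 members, had 116 ± 9.04 CPM in Pa1F/F and 88.3 ± 1.43 CPM in Amh-pa1-/- cells. The stretch of 17 members at chr13:21715763-21837530 had 7.04 ± 1.62 and 3.54 ± 1.12 CPM, and the 4 members at chr13:22035870-22043676 had 2.72 ± 0.524 and 2.38 ± 0.311 CPM. Hist2 genes summed to 6.32 ± 0.894 and 5.89 ± 0.455 CPM with overlapping libraries, and Hist3 genes to 2.99 ± 0.204 and 1.73 ± 0.145 CPM without overlap. Hist4h4, an H4 gene alone on chromosome 6, had 13, 11 and 3 counts in Pa1F/F and 3, 5 and 4 counts in Amh-pa1-/- replicates 1 to 3, and the genotypes overlapped. Protein-coding genes other than histones between the first and the last Hist1 member numbered 7. Of the 6 tested, 1 rose and none fell by the adjusted p, where 18.2% and 17.1% of all genes tested did, and their median log2 fold change was 0.23. The one that rose was Btn2a2, a butyrophilin gene named after its value was seen (log2 fold change 1.07 ± 0.30 SE, edgeR adjusted p = 0.0326), and its adjusted p was 0.136 with the counts of the close pairs summed.

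Only 14 of the 55 members had enough counts to be tested, so the following calls concern those 14 and not all members. A gene was called at an adjusted p under 0.05 in edgeR's quasi-likelihood test if its log2 fold change was also 1 or more in either direction, and fold changes are Amh-pa1-/- over Pa1F/F. By this rule 1 of 14 was called lower, against 6.56% of the 14919 genes tested, and 0 were called higher, against 5.44%. By the adjusted p alone, 3 were lower and 0 higher, against 17.1% and 18.2% of all genes tested. At an unadjusted p under 0.05, 6 were lower and 0 higher in edgeR, against 22.5% and 23.5% of all genes tested. The numbers were also 6 and 0 in limma-voom on the same 14 members and in DESeq2, which was run on all 55 members without the filter. The libraries of the genotypes did not overlap in 5 members, all lower in the knockout (26.0% of all genes tested), and in none that was higher (26.3%). The median log2 fold change was -0.27 over the 14 and 0.0 over all genes tested. The call was lost without any one library other than Amh-pa1-/- replicate 3, and 1 gene was lower by the adjusted p alone without Pa1F/F replicate 1, Pa1F/F replicate 3 or Amh-pa1-/- replicate 1. The median was -0.46 without Pa1F/F replicate 2, -0.51 without Amh-pa1-/- replicate 1 and -0.52 without Amh-pa1-/- replicate 3, but over the 16, 17 and 17 members that then passed the filter. Over the same 14 members it lay between -0.34 and -0.19 when single libraries were left out. When the counts of the close pairs, Pa1F/F replicates 1 and 3 and Amh-pa1-/- replicates 1 and 2, were each summed into 1 library, 0 genes passed by the adjusted p and 2 were lower at an unadjusted p under 0.05. With the split of close and other libraries as a term, 3 were called lower and 5 were lower by the adjusted p alone, those added being Hist1h1d and Hist1h2bg (edgeR adjusted p = 0.0112 and 0.0234), and 0 were higher. This fit called 21.8% of all genes lower and 22.3% higher by the adjusted p. With only 14 tested genes these shares were not set against the background by a test.

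**Figure D2:**
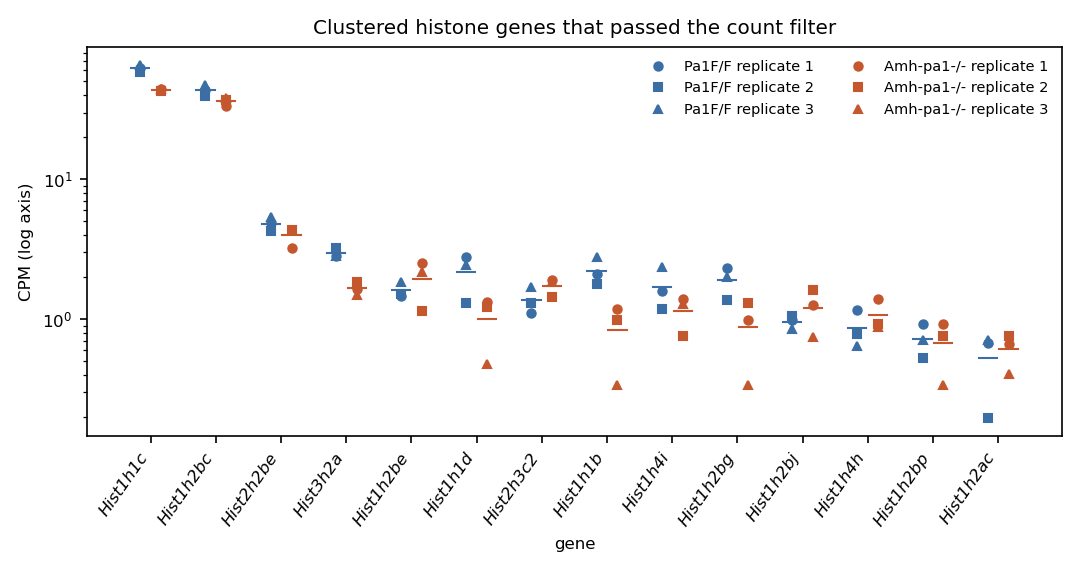
CPM (y axis, log scale) of the 14 clustered histone genes that passed the count filter, in order of their mean level. Each point is a library (circles, squares and triangles are replicates 1, 2 and 3), and lines are means of Pa1F/F (blue) and Amh-pa1-/- (orange) libraries. Hist1h1c and Hist1h2bc stand well above the other genes, and the lowest points of Hist1h1b, Hist1h1d and Hist1h2bg are all Amh-pa1-/- replicate 3.

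Hist1h1c (ENSMUSG00000036181, chr13:23738808-23740367 in GRCm38, plus strand, a single exon) was the member with the highest level and the clearest difference. Its level was 62.6, 58.2 and 65.9 CPM in Pa1F/F replicates 1 to 3 and 44.1, 42.8 and 44.3 CPM in Amh-pa1-/- replicates 1 to 3. All knockout libraries lay well below all control libraries. Hist1h1c fell by 0.51 ± 0.07 (SE) on the log2 scale (edgeR adjusted p = 0.00228), below the fold needed for a call, and the adjusted p was 0.0640 with the close pairs summed. Of its 100-base stretches, 94.9% occurred in no other gene's transcripts.

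Hist1h1b (ENSMUSG00000058773, chr13:21779883-21780625, minus strand), another linker histone gene, was the member called lower. It had 34, 27 and 39 counts in Pa1F/F and 18, 13 and 5 counts in Amh-pa1-/- replicates 1 to 3. The knockout libraries lay below the controls, and replicate 3 was the lowest. Its log2 fold change was -1.38 ± 0.43 (edgeR adjusted p = 0.0445), and the adjusted p was 0.176 with the close pairs summed. Without Amh-pa1-/- replicate 3 it was -1.0 (adjusted p = 0.0367), and leaving out any one of the other 5 libraries ended the call, with adjusted p between 0.0530 and 0.140. All of its 100-base stretches were unique to it, and its model ends at the stop codon, so reads beyond it were not counted for this gene if the authors' annotation was alike.

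Hist1h1d (ENSMUSG00000052565, chr13:23553262-23560686, plus strand), the last H1 gene that could be tested, had 45, 20 and 34 counts in Pa1F/F and 20, 16 and 7 counts in Amh-pa1-/- replicates 1 to 3. The genotypes met at 20 counts. Its log2 fold change of -1.10 ± 0.44 did not pass the test (edgeR adjusted p = 0.0964), and it was -0.76 without Amh-pa1-/- replicate 3. The other H1 genes were close to the floor. Hist1h1e had between 1 and 8 counts, Hist1h1a between 0 and 4, and Hist1h1t, the linker histone of spermatocytes, had 1 count in Pa1F/F replicate 3 and 0 in every other library. Hist1h1e overlaps Hist1h2be on the same strand, so reads of the shared part cannot be assigned to either.

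Among H2A genes, Hist3h2a (ENSMUSG00000078851, chr11:58954685-58956830, plus strand) was lower in the knockout cells. It had 46, 49 and 40 counts in Pa1F/F and 25, 24 and 22 counts in Amh-pa1-/- replicates 1 to 3, with a wide gap between the genotypes. It fell by 0.83 ± 0.19 on the log2 scale (edgeR adjusted p = 0.0164), and the adjusted p was 0.118 with the close pairs summed. Leaving out single libraries gave -0.89 to -0.76, and the adjusted p rose above 0.05, up to 0.0590, without Pa1F/F replicate 1, 2 or 3 or Amh-pa1-/- replicate 1. Hist3h2a starts at the same base and on the same strand as Trim17, and most of its 100-base stretches also occur in another gene's transcripts, so its level is uncertain. Hist1h2ac, the other H2A gene tested, had 11, 3 and 10 counts in Pa1F/F and 10, 10 and 6 in Amh-pa1-/- cells, which overlapped (log2 fold change 0.20 ± 0.52, edgeR adjusted p = 0.788). Its log2 fold change lay between -0.19 and 0.45 when single libraries were left out, so its direction is not settled.

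None of the 6 H2B genes tested passed the adjusted test, while 2 of them had an unadjusted p under 0.05, both lower, where 22.5% of all genes tested were lower at that p. Hist1h2bc (ENSMUSG00000018102, chr13:23684199-23692908, plus strand) had 43.2, 39.4 and 47.2 CPM in Pa1F/F and 33.3, 37.1 and 38.2 CPM in Amh-pa1-/- replicates 1 to 3. The libraries did not overlap, but the gap was small (log2 fold change -0.26 ± 0.10, edgeR adjusted p = 0.0776). The adjusted p was 0.0483 without Pa1F/F replicate 2 and 0.0497 without Amh-pa1-/- replicate 3, the libraries outside the close pairs. Hist1h2bg, at chr13:23571396-23572013, had 38, 21 and 28 counts against 15, 17 and 5, again without overlap and lowest in Amh-pa1-/- replicate 3 (-1.12 ± 0.46, edgeR adjusted p = 0.0981). Its log2 fold change was -0.73 without that library. Hist2h2be had 79, 65 and 75 counts in Pa1F/F and 49, 57 and 64 in Amh-pa1-/- cells (-0.28 ± 0.19, edgeR adjusted p = 0.297). This H2B gene on chromosome 3 had the third highest CPM of all members, and its libraries overlapped.

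The other 3 H2B genes tested were low and overlapped between genotypes. Hist1h2be had 24, 23 and 26 counts in Pa1F/F and 38, 15 and 32 in Amh-pa1-/- cells, so the knockout libraries spread on both sides of the controls. Hist1h2bj had 16, 16 and 12 against 19, 21 and 11 counts, and Hist1h2bp 15, 8 and 10 against 14, 10 and 5. Their log2 fold changes were 0.28 ± 0.32, 0.31 ± 0.34 and -0.09 ± 0.44. Leaving out single libraries gave 0.06 to 0.56, 0.07 to 0.56 and -0.4 to 0.23, in that order. Hist1h2bn, among the 15 members with the highest CPM although it did not pass the filter, had 16, 7 and 14 counts in Pa1F/F and 3, 8 and 5 in Amh-pa1-/- cells. Hist1h2bq and Hist1h2br had no 100-base stretch of their own, so their counts of 31 and 37 over the 6 libraries cannot be told apart from those of other genes. Hist1h2br had 9, 8 and 12 counts in Pa1F/F and 3, 5 and 0 in Amh-pa1-/- cells, without overlap, and was not tested. Hist1h2bl and Hist1h2bm were at or under the floor in every library, with 5 and 4 counts in total.

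For the core histones H3 and H4, 1 of 10 and 2 of 11 genes could be tested, and none passed. Hist2h3c2, an H3 gene in the Hist2 cluster, had 18, 20 and 24 counts in Pa1F/F and 29, 19 and 27 in Amh-pa1-/- cells (log2 fold change 0.34 ± 0.26, edgeR adjusted p = 0.343). Hist1h4i had 26, 18 and 33 against 21, 10 and 19 counts (-0.55 ± 0.36, adjusted p = 0.268), and Hist1h4h, another H4 gene, 19, 12 and 9 against 21, 12 and 13 (0.29 ± 0.35, adjusted p = 0.550). Leaving out single libraries moved Hist1h4i between -0.76 and -0.27, the latter without Pa1F/F replicate 3, and it was -0.33 without Amh-pa1-/- replicate 2. In these fits Hist1h4h lay between 0.05 and 0.57 and Hist2h3c2 between 0.21 and 0.52. In all 3 genes the libraries of the genotypes overlapped. These genes lie at chr3:96238108-96239127, chr13:22040636-22041362 and chr13:23531050-23531519.

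The 41 members that were not tested had 1 to 53 counts in total over the 6 libraries, with a median of 10. Of all 55 members, 20 never exceeded 3 counts in any library, which is at or under the floor, so their level was not detectable at this depth.

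Per kilobase of exon, the order of levels was led by Hist1h1c at 34.0 CPM per kilobase and Hist1h2bc at 13.3, whose ranges over the libraries did not overlap. Hist1h2bj (2.34), Hist1h2bg (2.25), Hist1h1b (2.06), Hist1h4h (2.05) and Hist1h4i (1.97) followed, with overlapping ranges over the libraries, so their order is not resolved. Hist1h1d, whose model is 7425 bases long, was at 0.214, and the median over all members was 0.206 CPM per kilobase. H2B members had the highest class median (0.335) and H2A members the lowest (0.10).

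Levels were also described by the annotated end of the transcript. In 22 members the model ran on for at least 100 bases past the stem-loop, among them Hist1h1c with 840 bases, and these held 55.8% of the member CPM. A further 38.5% was held by the 6 members whose window had no stem-loop match, mostly by Hist1h2bc. The 17 members whose model ended within 100 bases after the stem-loop held 3.13%, and the 10 members with at most 1 base after the stop codon 2.59%. The medians per kilobase were 0.199, 0.656, 0.152 and 0.185 CPM in these 4 groups in that order. The share of 100-base stretches found in no other gene also differed, with medians of 85.5%, 73.7%, 53.6% and 35.2%. Whether the library kit selected polyadenylated RNA and how reads with several matches were handled is not given in the sources used here, and the part of either in these levels was not tested.

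**Figure D3:**
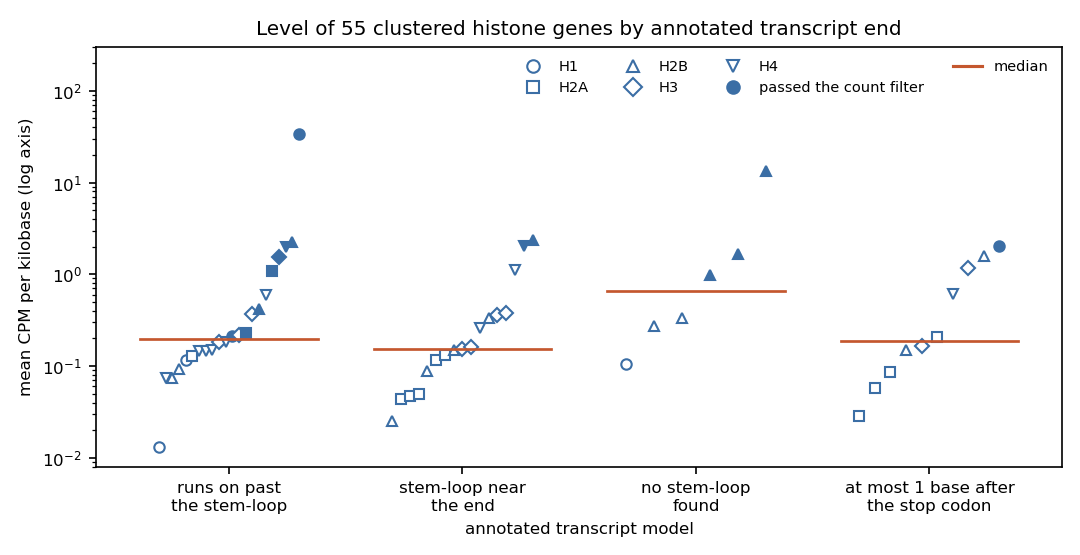
Mean level over the 6 libraries (y axis, CPM per kilobase of exon, log scale) of the 55 clustered histone genes, grouped by the end of the annotated transcript (x axis). Symbols give the histone class, filled symbols passed the count filter and lines are medians (0.199, 0.152, 0.656 and 0.185 from left to right). Hist1h1c and Hist1h2bc are the points at 34.0 and 13.3.

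Many members are arranged head to head, with starts a short distance apart and transcription running away from each other. There were 9 pairs of an H2A and an H2B gene with starts 176 to 296 bases apart. The H2B member had more counts in 8 of the 9 pairs. Among these 8, Hist1h2bl and Hist1h2ai had only 5 and 3 counts. The 31 counts of Hist1h2bq, partner of Hist1h2ao, cannot be told apart from those of other genes. In the pair that went the other way, Hist1h2ad had 7 counts and Hist1h2bf 6. Hist1h2bc had 3515 counts over the 6 libraries and its partner Hist1h2ac 50, with starts 251 bases apart. Hist2h2be had 389 counts and its partner Hist2h2ac 2, and Hist1h2bg had 124 and Hist1h2ae 8. The median share of 100-base stretches found in no other gene was 35.55% for H2A and 62.6% for H2B members, and its part in this difference was not tested.

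Promoters of the 3 members that passed the adjusted test and of the pair of Hist1h2ac and Hist1h2bc are shown because their levels carry the results above. Each runs from 250 bases before to 50 bases after the RefSeq start in GRCm38.p6, 5′ to 3′ on the strand of the gene, and the window of Hist1h2ac reaches over the start of Hist1h2bc on the opposite strand. Capitals mark the CCAAT box (CCAAT, which on the other strand reads as ATTGG), the TATA box (TATAAA, which then reads as TTTATA) and the octamer of histone promoters (ATTTGCAT, which then reads as ATGCAAAT). Matches were counted on both strands, also where they overlapped.
Hist1h1c (chr13:23738557-23738856, plus strand): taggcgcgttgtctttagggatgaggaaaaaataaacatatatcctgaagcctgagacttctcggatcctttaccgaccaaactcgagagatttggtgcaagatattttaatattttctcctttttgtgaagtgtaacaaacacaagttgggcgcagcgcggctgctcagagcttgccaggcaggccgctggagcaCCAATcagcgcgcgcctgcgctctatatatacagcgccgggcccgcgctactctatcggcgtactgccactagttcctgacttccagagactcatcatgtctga
Hist1h1b (chr13:21780576-21780875, minus strand): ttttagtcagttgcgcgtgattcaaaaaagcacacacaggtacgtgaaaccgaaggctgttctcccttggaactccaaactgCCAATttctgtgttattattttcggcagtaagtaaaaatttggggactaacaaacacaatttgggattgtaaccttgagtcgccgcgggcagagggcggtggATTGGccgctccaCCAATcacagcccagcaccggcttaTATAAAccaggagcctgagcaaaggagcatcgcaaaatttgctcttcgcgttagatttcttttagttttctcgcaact
Hist3h2a (chr11:58954435-58954734, plus strand): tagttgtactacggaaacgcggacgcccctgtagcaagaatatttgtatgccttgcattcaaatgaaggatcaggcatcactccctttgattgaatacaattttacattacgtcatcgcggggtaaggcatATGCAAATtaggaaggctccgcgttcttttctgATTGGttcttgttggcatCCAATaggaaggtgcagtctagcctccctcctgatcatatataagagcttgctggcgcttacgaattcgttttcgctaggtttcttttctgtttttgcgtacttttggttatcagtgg
Hist1h2ac (chr13:23683910-23684209, minus strand): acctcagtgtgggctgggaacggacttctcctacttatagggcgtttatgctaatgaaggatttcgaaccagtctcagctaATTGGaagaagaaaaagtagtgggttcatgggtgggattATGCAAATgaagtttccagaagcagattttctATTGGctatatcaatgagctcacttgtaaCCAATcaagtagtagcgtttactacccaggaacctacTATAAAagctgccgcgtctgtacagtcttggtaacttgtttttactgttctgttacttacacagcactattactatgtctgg
A promoter was matched by symbol or synonym for 50 of the 55 members. A CCAAT box was found in 43 of them (86.0%), against 37.4% of the 32851 promoters in the table. It was in every matched H1, H2A, H2B and H3 promoter and in 3 of 10 H4 promoters. The TATA box was found in 58.0% of member promoters, against 13.6% of all. The octamer was found in 10 members (20.0%), 5 of 12 H2A and 5 of 14 H2B genes, in no H1, H3 or H4 promoter, and in 1.74% of all promoters. A match describes the letters and is not a measured binding site. The promoters of the 3 lowered genes all held a CCAAT box, while the letters TATAAA were found only in that of Hist1h1b and the octamer only in that of Hist3h2a. Other forms of the TATA box were not searched for.

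Genes that make, process and handle histones were compared in the same test. Among 24 genes of histone mRNA synthesis and processing, 3 rose and 1 fell by the adjusted p, against 18.2% and 17.1% of all genes tested, with a median log2 fold change of 0.06. With the close pairs summed, 0 rose and 0 fell. The genes that rose were Zfp473, which acts in the cleavage of histone pre-mRNA (1.18 ± 0.34, edgeR adjusted p = 0.0355), Slbp itself and Cstf2, a cleavage factor. Zfp473 did not pass without any one library other than Amh-pa1-/- replicate 1 (edgeR adjusted p = 0.0610 to 0.116). Its adjusted p was 0.114 with the close pairs summed. Slbp had 36.0, 31.0 and 34.2 CPM in Pa1F/F and 39.4, 41.2 and 51.8 CPM in Amh-pa1-/- replicates 1 to 3, without overlap (0.39 ± 0.12, edgeR adjusted p = 0.0484), with an adjusted p of up to 0.124 when a single library was left out. Gon4l fell by 0.28 ± 0.07. Of these, 1 rose without Pa1F/F replicate 1, 2 or 3 or Amh-pa1-/- replicate 2, and none fell without any one library other than Amh-pa1-/- replicate 3. Cpsf2, Sympk, Srrt and Zcchc6, the most abundant genes of this list besides Cstf2, had log2 fold changes between -0.14 and 0.11 and did not pass.

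Of 23 genes for histone chaperones and assembly, 12 rose and 4 fell by the adjusted p (median log2 fold change 0.25), against 18.2% and 17.1% of all genes tested. With the close pairs summed, 3 rose and 1 fell. Chaf1a, the large subunit of the CAF-1 complex that deposits H3 and H4 behind the replication fork, had 19.9, 18.3 and 17.3 CPM in Pa1F/F and 30.1, 35.6 and 47.9 CPM in Amh-pa1-/- replicates 1 to 3, so every knockout library was higher (1.03 ± 0.18, edgeR adjusted p = 0.00501). Asf1b, which hands H3 and H4 to CAF-1, also rose (1.14 ± 0.22, edgeR adjusted p = 0.00769). Summing the close pairs gave an adjusted p of 0.0485 for Chaf1a and 0.0681 for Asf1b. Daxx, a chaperone of the variant H3.3, fell by 1.3 ± 0.34, with 325 CPM in Pa1F/F replicate 2 against 142 and 131 in the other controls and 77.2 to 84.7 in the knockout libraries. Without Pa1F/F replicate 2 its log2 fold change was -0.75, and its adjusted p was 0.0719 without Amh-pa1-/- replicate 1 and 0.0809 without replicate 2. Among the most abundant genes of the list, Rbbp7 fell by 0.35 ± 0.07, Hjurp and Nap1l4 rose by 0.61 ± 0.16 and 0.27 ± 0.04, and Rbbp4 and Atrx did not pass. The count that rose was 6 without Pa1F/F replicate 1 and 6 without Pa1F/F replicate 3.

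Of 10 replacement histone variants tested, 2 rose and 3 fell by the adjusted p, against 18.2% and 17.1% of all genes tested, and with the close pairs summed 0 rose and 0 fell. H2afz, which encodes H2A.Z, had 144, 165 and 142 CPM in Pa1F/F and 221, 227 and 316 CPM in Amh-pa1-/- replicates 1 to 3, all higher in the knockout (0.76 ± 0.15, edgeR adjusted p = 0.00841). H2afy2 rose by 0.62 ± 0.17 and H2afj fell by 0.70 ± 0.21, both named after their values were seen. The linker variant H1f0 had 150, 121 and 124 CPM in Pa1F/F and 88.4, 87.1 and 74.1 CPM in Amh-pa1-/- replicates 1 to 3, and it fell by 0.66 ± 0.11 (edgeR adjusted p = 0.00430). Summing the close pairs gave an adjusted p of 0.0712 for H2afz and 0.0504 for H1f0. H2afy, which encodes macroH2A, fell by 0.37 ± 0.08. H3f3b, an H3.3 gene, was at 799 ± 44.8 and 703 ± 7.38 CPM, far above all clustered H3 genes together, and neither it nor H3f3a passed (-0.18 ± 0.07 and -0.02 ± 0.08). The number that rose was 1 without Pa1F/F replicate 3 or Amh-pa1-/- replicate 1 or 2, and the number that fell was 1 without Pa1F/F replicate 1. H1foo and Hils1, germ cell variants of H1 outside the clusters, were at or under 1 CPM in every library.

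Of 33 S phase genes, 27 rose and none fell by the adjusted p, against 18.2% of all genes tested that rose, with a median log2 fold change of 0.90. With the close pairs summed, 14 rose and 0 fell. The genes that rose included 12 called genes, among them Mcm2, Mcm5, Cdc6, Prim1, Pola1, Lig1, Dtl, Rrm2, Ccne2, E2f2 and Cdc7, with log2 fold changes of 1.02 to 1.55. Pcna, the sliding clamp of the replication fork, had 69.1, 75.5 and 73.3 CPM in Pa1F/F and 119, 120 and 144 CPM in Amh-pa1-/- replicates 1 to 3 (0.81 ± 0.09, edgeR adjusted p = 0.000969, and 0.0336 with the close pairs summed). Rrm1, Mcm3, Mcm4 and Mcm6 also rose. None of the 14 clustered histone genes tested rose in this test, and their own median was -0.27. The lists share the same 6 libraries, and no test was made between them. Without Amh-pa1-/- replicate 3, 26 S phase genes rose and 4 clustered histone genes fell, Hist1h2bc being the one added. Fewer S phase genes rose without Pa1F/F replicate 1 or 3, where Mcm6 was among those that did not pass (edgeR adjusted p = 0.107 and 0.123).

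**Figure D4:**
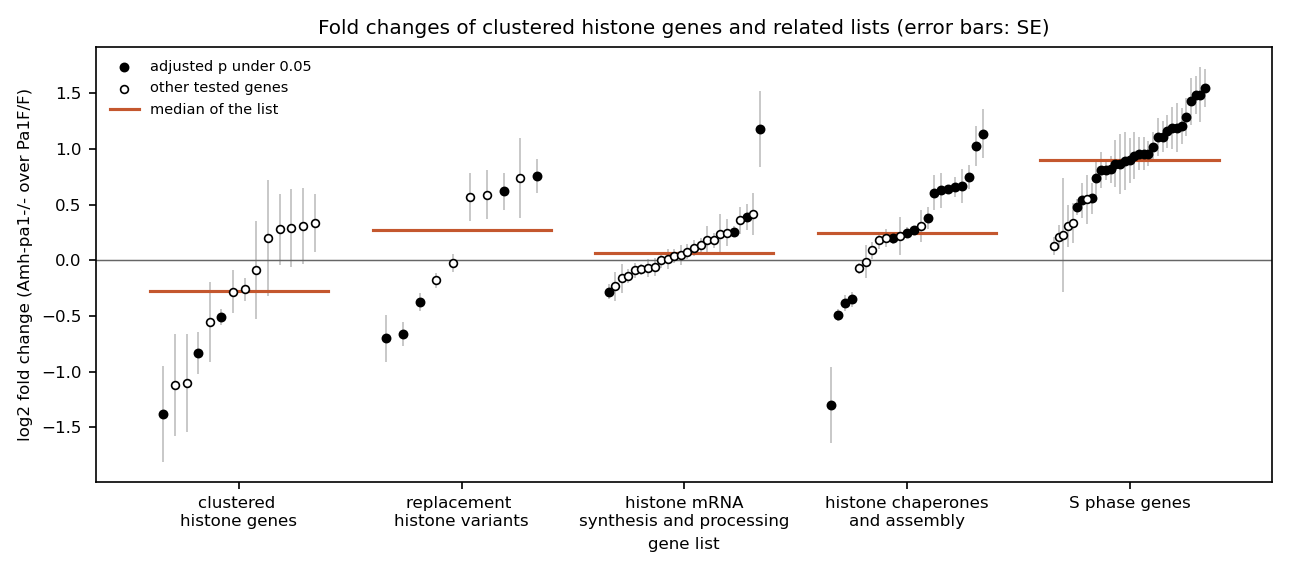
Log2 fold change of Amh-pa1-/- over Pa1F/F (y axis, error bars SE) for each tested gene of the 5 lists (x axis), in ascending order within a list. Filled points had an edgeR adjusted p under 0.05 and lines are list medians. The S phase genes lie above 0 with a median of 0.90, while the clustered histone genes lie on both sides of 0 with a median of -0.27 and no filled point above 0.

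Markers of cell types moved with the genotype as well, and their counts by the adjusted p stand against 17.1% lower and 18.2% higher over all genes tested. The summed level of the peritubular myoid cell list was 213 to 272 CPM in Pa1F/F and 823 to 1216 CPM in Amh-pa1-/- libraries, with 1 of 4 tested genes, Acta2, higher. Acta2 held most of this sum, with means of 201.5 CPM in Pa1F/F and 895.8 CPM in Amh-pa1-/- cells. Myh11 and Des were below every Pa1F/F library in Amh-pa1-/- replicates 1 and 2 and above them all in replicate 3. The Leydig cell list was at 792 to 910 and 164 to 287 CPM with 3 of 3 tested genes lower, the macrophage list at 127 to 138 and 76.0 to 93.8 CPM with 6 of 8 lower, and the endothelial cell list at 115 to 121 and 62.0 to 99.8 CPM with 2 of 3 lower. The Sertoli cell list was at 16440 to 16730 and 9851 to 12800 CPM, with 4 of 13 tested genes lower and 1 higher and a median log2 fold change of -0.36. Amh, Amhr2, Cldn11 and Rhox8 were lower too without Amh-pa1-/- replicate 3, and Wt1 was higher. The spermatogonia list was at 281 to 342 and 187 to 296 CPM with 3 of 6 tested genes lower, the spermatocyte list at 6.62 to 9.72 and 6.83 to 11.9 CPM with 1 of 6 lower, and the spermatid list at 7.55 to 8.35 and 7.19 to 8.50 CPM with none of 1 changed. With the close pairs summed, 1 of 4 peritubular genes was higher, and 1 of 4 Leydig, 3 of 9 macrophage, 1 of 3 endothelial and 0 of 7 spermatogonia, 0 of 7 spermatocyte and 0 of 2 spermatid genes were lower. Amh-pa1-/- replicate 3, the lowest library for Hist1h1b, Hist1h1d and Hist1h2bg, had the highest peritubular and S phase sums, at 1216 and 1961 CPM, and the lowest spermatogonia sum, at 187 CPM. That spermatogonia sum was mostly Uchl1 and Etv5 (98.9 and 73.95 CPM). Id4 and Dazl were higher in this library than in any other (8.71 and 3.06 CPM). The part of these cell types in the levels of clustered histone genes was not tested.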

How the data were processed

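Counts of reads per gene were deposited by the authors for 6 libraries without normalization. Per the labels, reads were aligned to GRCm38 with HISAT2 2.1.0 and counted with HTSeq 0.6.0, and the methods name an Ensembl annotation of that build. The strand setting, the handling of reads with several matches and any poly(A) selection are not given in the sources used here. The table also holds the authors' own comparison (mean, fold change, log2 fold change, p and adjusted p), which was not used. The methods name DEGseq, while the tests here used edgeR on the deposited counts. Pa1 was not analysed here, so the labels were not checked against the targeted gene.

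Tests used R 4.3.3 with edgeR 4.0.16 (filterByExpr with a minimum count of 10 and a minimum total of 15, TMM, quasi-likelihood F-test, Benjamini-Hochberg over 14919 genes), and tables and sequence searches used Python 3.11.15. DESeq2 1.42.0 and limma 3.58.1 served as alternatives. The steps were tested on simulated counts. The methods speak of biological replicates, but nothing says which animals they came from, so p-values measure the spread between these samples. The members and gene lists were chosen with earlier results of these data known. Named were the called members, the 15 members with the highest CPM, tested H1 genes, testis-specific members, and of each list the called genes and up to 5 more with the highest CPM. A gene that this rule names is not reported here. Levels per kilobase used the exon length of GENCODE vM39 or the gene span in the table, whichever was shorter. Promoters are from RefSeq GRCm38.p6.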

Additional observations from a re-analysis of the deposited data

How the results depend on the processing

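No clustered histone gene was called higher under any alternative. The count called lower was 1 with DESeq2 size factors, library size scaling, DESeq2, limma-voom and no filter, 0 with at least 10 counts in every library (a filter that removes Hist1h1b, the called gene, from the 8 members left), and 0 with the replicate block, with the close libraries summed (Pa1F/F replicates 1 and 3, Amh-pa1-/- replicates 1 and 2), and when tested against a log2 fold change of 1. It was 3 with a term for the libraries that deviated together (Pa1F/F replicate 2 and Amh-pa1-/- replicate 3 against the rest), 3 without a fold threshold and 0 to 1 when single libraries were left out. By the adjusted p alone the count was 5 with that term, 1 with the replicate block, 0 with close libraries summed, where 2 had an unadjusted p under 0.05, 0 when tested against a log2 fold change of 1, and 1 to 4 when single libraries were left out. Hist1h1c passed in each of these fits except with close libraries summed (edgeR adjusted p = 0.0640) and when tested against that fold. Same-numbered libraries did not all deviate together (r = 0.11, -0.16 and -0.18), so the numbers were not taken to pair them. Pa1F/F replicate 2 and Amh-pa1-/- replicate 3 deviated together (r = 0.21). The median log2 fold change of tested members lay between -0.52 and -0.20, over 8 to 55 members depending on the filter and fit, and the log2 ratio of all summed members between -0.47 and -0.35. Summing the close libraries leaves 2 libraries per genotype. The term for library sets, alternatives for the gene lists and some for the median were chosen after seeing the data. Under close libraries summed, 14 S phase genes, 3 chaperone genes, 0 mRNA processing genes and 0 replacement variants rose. The count filter left 14 of 55 members to test.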
